A study of Mus musculus with 6 samples.

Results

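The genes of the cytosolic ribosomal proteins were followed in mammary glands of metformin-treated and control mice. They were taken from the count table by symbol: names that start with Rps or Rpl and a digit, with Rpsa, Rplp0, Rplp1 and Rplp2, and without the Rps6k kinases and symbols containing -ps. The rule found 86 genes among 25160 features. Of these, 31 encode proteins of the small 40S subunit, 46 encode proteins of the large 60S subunit, 8 are paralogs of such genes (Rpl3l, Rpl7l1, Rpl10l, Rpl22l1, Rpl36al, Rpl39l, Rps27l and Rps27rt), and 1, Rps19bp1, encodes a protein that binds RPS19 and is itself no ribosomal protein. The metformin group consisted of 3 wild-type female FVB/N mice injected intraperitoneally with 200 mg/kg metformin each day, beginning at 8 weeks of age and ending at 18 weeks. The control group consisted of 3 wild-type female FVB/N mice given saline as the vehicle, also from 8 to 18 weeks of age. RNA came from whole 4th mammary glands whose lymph nodes had been removed, with 1 library per mouse. A whole gland holds fat, stroma, vessels, muscle and immune cells beside the epithelium, and in such tissue fewer cells of a type cannot be told apart from less RNA per cell.

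Ribosomes translate every mRNA of the cell, and their proteins are made in matched amounts so that the subunits can be assembled in the nucleolus. Vertebrate ribosomal protein mRNAs begin with a tract of pyrimidines, the TOP motif, through which the kinase complex mTORC1 and the RNA-binding protein LARP1 regulate their translation and stability. Metformin is known to inhibit mitochondrial complex I and to activate AMPK, a kinase that restrains mTORC1. S6 kinase, a target of mTORC1, phosphorylates the 40S protein RPS6. The libraries measure mRNA levels and hold no measure of translation or phosphorylation.

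The reference sequence around the start of transcription was searched for such a tract. A RefSeq promoter entry (GRCm38.p6) was matched for 66 of the 86 genes. Within 10 bases of the annotated start, 37 of the 66 (56.1%) had a C followed by at least 4 pyrimidines on the coding strand, against 30.7% of all 32851 promoter entries. The 30 bases from 20 before to 10 from the start are shown for 8 of the genes described here. The first 4 have the tract in capitals, and the last 4 have no tract that starts within 10 bases. Those of Rpl5 and Rps15 hold a run of pyrimidines further upstream. The run of Rpl6 starts at -9 relative to the annotated start and is 6 bases long, so it lies wholly upstream of it. A run counted here therefore need not lie in the annotated mRNA.
Rps6: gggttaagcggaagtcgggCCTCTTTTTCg
Rplp2: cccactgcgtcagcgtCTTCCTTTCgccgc
Rps24: acgcccccgcgctggggtCCTTCCTTgcgc
Rpl6: gatcttggtcaCCTCCCgtcattgcttata
Rpl5: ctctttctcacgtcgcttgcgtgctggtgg
Rplp0: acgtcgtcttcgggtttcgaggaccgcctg
Rpsa: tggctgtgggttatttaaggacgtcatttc
Rps15: gccctcccggcagagctcgcgataactgcg
The windows lie at chr4:86857358-86857387 on the minus strand for Rps6 and, on the plus strand, at chr7:141447631-141447660 for Rplp2, chr14:24490658-24490687 for Rps24, chr5:121204481-121204510 for Rpl6, chr5:107900508-107900537 for Rpl5, chr5:115559447-115559476 for Rplp0, chr9:120127746-120127775 for Rpsa and chr10:80292411-80292440 for Rps15. An annotated start that lies a few bases off places the tract outside this window. Over the whole entry, from 250 bases before to 50 after the start and on both strands, the motif CCGGAA was found in 33 of 66 entries, against 14.9% of all entries, and GGGCGG in 40 (60.6%, against 35.7%). GATGGC was found in 13 (19.7%, against 14.1%) and TATAAA in 6 (9.09%, against 13.6%). CCGGAA read on the other strand can share bases with GGGCGG and with the pyrimidine tract, and a match describes the sequence only.

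The libraries held between 35375365 and 47370885 counts. After a filter for low counts, 15925 features were tested, among them 85 of the 86 genes. Levels are given as CPM, the counts scaled to library size by TMM factors, and fold changes as log2 of metformin over control with their approximate standard error (SE). Epithelial markers (10 of 10 found, none at 0) summed to 476 to 679.5 CPM in metformin mice and to 643 to 1382 CPM in control mice, and adipocyte markers (10 of 10) to 22687 to 29977 CPM in metformin mice and to 18327 to 30191 CPM in control mice, so epithelium and fat were present in every library. Milk and secretion genes stood apart within the control group: they summed to 506 to 1118 CPM in the metformin mice, against 41870, 36150 and 945 CPM in control mice 1, 2 and 3. No label or file header gives a batch.

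No ribosomal protein gene passed a test of the difference between metformin-treated and control glands. By the edgeR quasi-likelihood test, 0 of 85 genes changed 1.5-fold or more at an unadjusted p under 0.01, where 1.7% of all features did, with 0.421% higher and 1.28% lower in metformin mice. At an unadjusted p under 0.05 the count was again 0, against 7.53% of all features. At an adjusted p under 0.05, edgeR and limma-voom called 0 of the 85 genes and 0.0% of all features, and DESeq2 called 0 of the 85 and 1.26% of all features. The smallest edgeR p belonged to Rpl7l1 (adjusted p = 0.735). The fold changes were spread on both sides of 0, with 54 genes higher (63.5%, against 51.3% of all features) and 31 lower, and ranged between -0.77 (Rpl39l) and 0.57 (Rpl30) on the log2 scale. Their median was 0.06, beside 0.01 over all features tested.

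The intervals show how large a change these 6 mice could have missed. The 95% interval of the log2 fold change included 0 for all 85 genes, lay wholly within a 2-fold change for 61, and lay wholly within a 1.5-fold change for 5. The median SE was 0.30, beside 0.263 over all features. The groups separated completely in 1 gene (1.18%), against 13.2% of all features. That gene was higher in metformin mice (6.24% of all features), and 0 were lower without overlap (7.01% of all features). In 61 genes (71.8%) all 3 metformin mice lay inside the range of the 3 control mice, which held for 19.4% of all features, and the reverse arrangement occurred in 1 gene, Rpl3l (15.3% of all features).

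**Figure D1:**
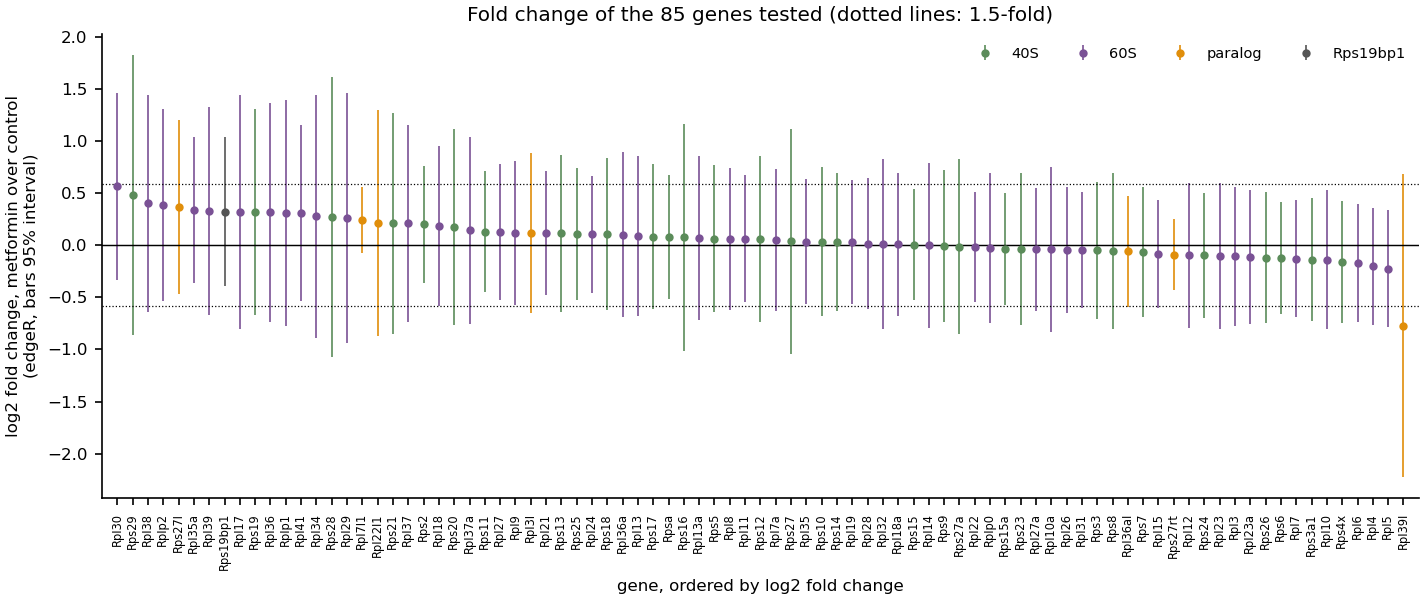
Log2 fold change, metformin over control, of the 85 genes tested (vertical axis), ordered from highest to lowest along the horizontal axis. Points are edgeR estimates, bars are 95% intervals, colours mark 40S, 60S, paralog and Rps19bp1, and dotted lines mark a 1.5-fold change. Every bar crosses 0, and the estimates run from 0.57 for Rpl30 to -0.77 for Rpl39l.

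The most abundant of these mRNAs per length were compared by their deposited FPKM, which divides by transcript length. Rps15, a 40S protein near the decoding site, had the highest mean over the 6 mice (762 FPKM), followed by the 60S stalk protein gene Rplp1 (748), Rps24 (726), Rpl13a (706), Rps3a1 (678) and Rps6 (666). Rps15 was measured at 477, 381 and 383 CPM in metformin mice, against 366, 513 and 356 CPM in control mice. Its log2 fold change was 0.01 (SE 0.228), and the metformin mice lay inside the control range. Rps24, which is needed for processing of the small subunit rRNA, had 636, 443 and 411 CPM in metformin mice and 500.1, 641 and 453 CPM in control mice. Rpl13a had 726, 589 and 559 CPM in metformin mice and 611, 832 and 337 CPM in control mice. Rps3a1 had 775, 642 and 619.8 CPM in metformin mice and 695, 952 and 592 CPM in control mice. In Rpl13a and Rps3a1, as in Rps15, control mice held both the highest and the lowest value. The log2 fold changes of Rps24, Rpl13a and Rps3a1 were -0.10 (SE 0.256), 0.08 (SE 0.338) and -0.14 (SE 0.254).

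In the small subunit, 19 genes were higher and 12 lower, with 0 past the thresholds and a median of 0.04 on the log2 scale. Rps6 (chr4:86854660-86857412), whose product is the S6 kinase substrate, had 665, 546 and 594 CPM in metformin mice, against 591, 807 and 563 CPM in control mice. Its log2 fold change was -0.12 (SE 0.231, 95% interval -0.66 to 0.42, adjusted p = 0.913). The groups overlapped, and the highest value was that of control mouse 2. Rpsa (chr9:120127689-120132369), whose product was also described as a laminin receptor, had 901, 825.5 and 825.5 CPM in metformin mice and 777, 1029 and 611 CPM in control mice (log2 fold change 0.08, SE 0.256). Rps4x, an X-linked gene of the 40S subunit, had 632, 538 and 626 CPM in metformin mice and 581, 878 and 545 CPM in control mice. Its log2 fold change was -0.16 (SE 0.253, adjusted p = 0.889), the furthest below 0 in the small subunit.

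In the large subunit, 30 genes were higher and 16 lower, with 0 past the thresholds and a median of 0.06 on the log2 scale. Rpl5 and Rpl11 encode the proteins that bind the 5S rRNA and, when ribosome assembly is disturbed, the p53 regulator MDM2. Rpl5 (chr5:107900502-107909005) had 473, 367 and 400.2 CPM in metformin mice, against 430.0, 619.6 and 399.9 CPM in control mice. Rpl11 (chr4:136028265-136053428) had 352.5, 320.3 and 288 CPM in metformin mice, against 302, 406 and 212 CPM in control mice. The log2 fold change of Rpl5 was -0.23 (SE 0.242) and that of Rpl11 0.06 (SE 0.262), and in both genes control mouse 2 had the highest value. Rpl4 had 793, 652 and 682 CPM in metformin mice and 747.5, 1018 and 679.5 CPM in control mice, with a log2 fold change of -0.20 (SE 0.243). Rpl6 had 501, 437.5 and 486 CPM in metformin mice and 478.5, 698.5 and 424 CPM in control mice, with a log2 fold change of -0.17 (SE 0.245).

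The 60S stalk recruits elongation factors and is made of the RPLP0 base with dimers of RPLP1 and RPLP2. Rplp0 (chr5:115559467-115563727) had 928, 908.5 and 935 CPM in metformin mice, against 961, 1275 and 582 CPM in control mice. Rplp1 (chr9:61913284-61914542) had 524, 433 and 392 CPM in metformin mice, against 389, 565 and 132.5 CPM in control mice. Rplp2 (chr7:141447370-141451585) had 398, 375 and 296 CPM in metformin mice, against 309, 388 and 122 CPM in control mice. The log2 fold changes were -0.02 (SE 0.310) for Rplp0, 0.31 (SE 0.466) for Rplp1 and 0.39 (SE 0.397) for Rplp2, and all 3 had their lowest value in control mouse 3. The 2 small stalk genes had 0.278 (Rplp1) and 0.350 (Rplp2) of the mean of control mice 1 and 2 in that mouse, while Rplp0 had 0.521 of it.

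The 60S genes with the smallest p among those higher in metformin mice were weakly counted. Rpl30 had 31.8, 16.4 and 11.5 CPM in metformin mice and 13.1, 17.3 and 9.87 CPM in control mice. Metformin mouse 1 stood above the other 5, which overlapped (log2 fold change 0.57, SE 0.386, adjusted p = 0.767). Rpl35a had 12.3, 15.7 and 12.8 CPM in metformin mice and 9.07, 15.9 and 7.31 CPM in control mice (log2 fold change 0.34, SE 0.303, adjusted p = 0.806). The metformin values of Rpl35a lay inside the control range. Of the 50-base stretches of their transcripts, 47.8% (Rpl30) and 52.9% (Rpl35a) also occur in transcripts of 16 and 19 other genes. The part of this sharing in their low counts was not tested.

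The paralogs, of which 4 were higher and 3 lower with 0 past the thresholds, are given one by one. Rpl7l1 (chr17:46773907-46782672), a relative of Rpl7, was the gene whose groups did not overlap: 78.5, 75.7 and 68.7 CPM in metformin mice, against 62.2, 62.1 and 64.1 CPM in control mice. The log2 fold change was 0.24 (SE 0.135, 95% interval -0.07 to 0.56, adjusted p = 0.735), so it did not pass the test. Rps27l, a paralog of Rps27 that p53 induces, had 58.2, 67.8 and 46.98 CPM in metformin mice and 63.3, 49.2 and 21.9 CPM in control mice (log2 fold change 0.37, SE 0.359). Rpl22l1, a paralog of Rpl22, had 52.9, 35.0 and 27.2 CPM in metformin mice and 39.0, 47.8 and 12.5 CPM in control mice. Rpl36al, a paralog of Rpl36a, had 84.1, 69.9 and 67.9 CPM in metformin mice and 78.9, 97.4 and 54.4 CPM in control mice. Both were lowest in control mouse 3, and Rpl22l1 was highest in metformin mouse 1 and Rpl36al in control mouse 2, at log2 fold changes of 0.21 (SE 0.467) and -0.06 (SE 0.229).

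Rpl3l and Rpl39l, paralogs with known tissue bias, had their highest values in metformin mouse 2 and control mouse 1. Rpl3l replaces RPL3 in heart and skeletal muscle and had 36.8, 96.4 and 61.6 CPM in metformin mice, against 71.0, 55.9 and 52.5 CPM in control mice (log2 fold change 0.12, SE 0.329). Rpl3 itself had 368, 291 and 349.9 CPM in metformin mice and 321, 512 and 252 CPM in control mice. Among metformin mice Rpl3l was thus lowest in mouse 1 and highest in mouse 2. The 9 skeletal muscle markers, all found and none at 0, summed to 12351, 25213 and 17876 CPM in the same metformin mice and to 15712, 14329 and 15260 CPM in control mice, and the part of muscle in the Rpl3l values was not tested. Rpl39l, best known from testis, had 0.823, 1.95 and 1.68 CPM in metformin mice and 4.35, 2.45 and 0.807 CPM in control mice. Its log2 fold change of -0.77 was the lowest of the set and carried the largest error (SE 0.626, adjusted p = 0.797). Without control mouse 1, which held the highest value, it was -0.14 (SE 0.6335). Rpl10l, also expressed in testis, had 0 counts in all 6 libraries, where 3 counts would be 0.0633 to 0.0848 CPM before TMM scaling, and was not tested.

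Rps27rt, a copy of Rps27, and Rps19bp1 complete the set. Rps27rt had 27.7, 24.9 and 24.6 CPM in metformin mice and 25.4, 26.4 and 30.3 CPM in control mice, with a log2 fold change of -0.09 (SE 0.146). It was the one gene with its highest value in control mouse 3. Of the 50-base stretches of its transcript, 91.1% also occur in transcripts of any of 9 other genes, 8 of them pseudogenes. The part shared with Rps27 was not measured separately, and whether reads of Rps27 and Rps27rt were mixed was not tested. Rps27 had 134.9, 200.5 and 49.1 CPM in control mice 1, 2 and 3, lowest in the mouse where Rps27rt was highest. Rps19bp1, whose product also binds the deacetylase SIRT1, had 22.7, 19.97 and 17.1 CPM in metformin mice and 18.5, 20.4 and 8.92 CPM in control mice (log2 fold change 0.32, SE 0.307).

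Mice of the control group differed from one another in the same order in most of the genes. Control mouse 2 had the highest value in 64 of the 85 genes (75.3%, against 21.3% of all features), and control mouse 3 the lowest in 77 (90.6%, against 24.0%). Both held at once in 59 genes (69.4%, against 5.95%). Control mouse 2 was at least 2-fold above control mouse 3 in 50 genes (58.8%, against 10.3% of all features), and the median of this ratio was 2.16, beside 1.03 over all features. The metformin mice lay closer together: the median SD of log2 CPM was 0.187 among them and 0.557 among control mice, beside 0.239 in metformin and 0.27 in control mice over all features. The SD was larger in the control group in 81 genes (95.3%, against 56.0%). These counts compare single mice, and the order of the mice was seen before they were made.

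**Figure D2:**
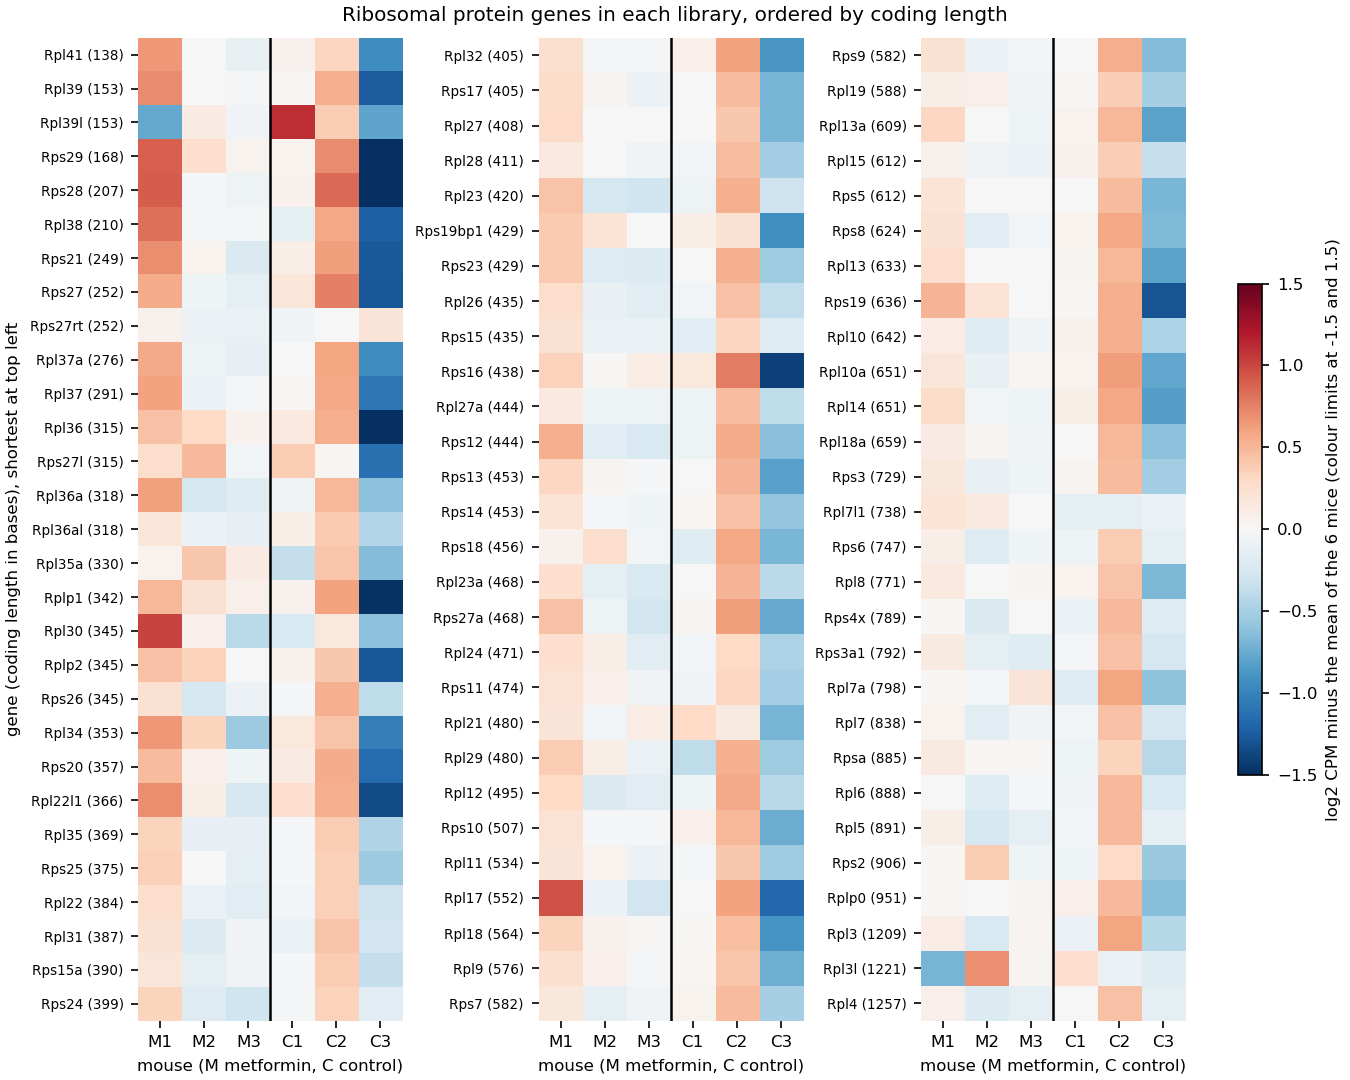
Level of the 85 tested genes (rows, with coding length in bases, shortest at the top left and longest at the bottom right) in metformin mice M1 to M3 and control mice C1 to C3 (columns). Colour is log2 CPM minus the mean of the gene over the 6 mice. The C2 column is red and the C3 column blue in most rows, and the blue of C3 is deepest in the short genes of the left panel. Rps27rt, Rpl7l1 and Rpl3l depart from this order.

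The medians of both subunits had the same order across the mice. The median deviation of the 40S genes from their own means was 0.23, -0.03 and -0.06 (log2) in metformin mice 1, 2 and 3, against 0.00, 0.50 and -0.63 in control mice 1, 2 and 3. That of the 60S genes was 0.26, -0.01 and -0.05 in metformin mice and 0.00, 0.49 and -0.62 in control mice. Genes with and without a pyrimidine tract that starts within 10 bases of the RefSeq start are set side by side as a description. Some without it, such as Rpl5 and Rps15, hold a run further upstream. In some with it, such as Rpl6, the tract lies wholly upstream of the start. The 36 tested genes with it had a median log2 fold change of 0.03 and a median ratio of control mouse 2 to control mouse 3 of 2.21, and the 29 without it had 0.08 and 2.00.

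Marker genes of other cells moved with some of these libraries. In control mouse 2, which had the highest level of most ribosomal protein genes, epithelial markers summed to 1382 CPM, against 710.4 and 643 CPM in control mice 1 and 3, with 679.5, 476 and 563 CPM in metformin mice 1, 2 and 3. The 6 plasma cell markers, all found and none at 0, summed to 338, 261 and 438 CPM in metformin mice and to 883, 1607 and 315 CPM in control mice. T and B lymphocyte markers (11 of 12 found, none at 0 in all mice) summed to 26.2, 17.5 and 68.5 CPM in metformin mice and to 43.5, 55.6 and 38.2 CPM in control mice. Control mouse 2 was thus highest for epithelial and plasma cell markers, while metformin mouse 3 was highest for lymphocyte markers with ribosomal protein genes near their means. In control mouse 3, which had the lowest level of most of the genes, the 7 fibroblast markers, all found and none at 0, were high: they summed to 3760.4, 2205 and 4392 CPM in metformin mice 1, 2 and 3, against 2161, 2085 and 4578.5 CPM in control mice 1, 2 and 3. The adipocyte markers summed to 29977, 29394 and 22687 CPM in metformin mice and to 18327, 18728 and 30191 CPM in control mice, also highest in control mouse 3. The part of these cells in the ribosomal protein levels was not tested.

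The size of the departure in control mouse 3 went with coding length. The coding length of the 85 genes was 138 to 1257 bases with a median of 453, against a median of 1383 over all features that have one. In the 29 genes under 400 bases, control mouse 3 had a median of 0.399 of the level in control mice 1 and 2, in the 30 genes of 400 to under 600 bases 0.556, and in the 26 tested genes of 600 bases or more 0.603. All features of the same lengths showed smaller departures, at 0.768, 0.874 and 1.01. Control mouse 3 was the lowest of the 6 in 27 of the 29 shortest genes (93.1%, against 54.9% of features under 400 bases), in all 30 of middle length (against 41.5%) and in 20 of the 26 longest (76.9%, against 21.2%). Spearman's rho between coding length and the log2 ratio of control mouse 3 to control mice 1 and 2 was 0.430 over the 85 genes and 0.272 over 14717 features. These correlations run across genes of the same libraries and are descriptions.

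Rps29 and Rps28, chosen after their values were seen as the genes with the widest range between mice, show this at its strongest. Rps29, a zinc-binding 40S protein with a coding length of 168 bases, had 114, 72.9 and 63.6 CPM in metformin mice, against 63.5, 100.1 and 15.5 CPM in control mice. Rps28, with 207 bases, had 129, 67.5 and 65.3 CPM in metformin mice, against 71.9, 124 and 20.6 CPM in control mice. Control mouse 3 lay far below the other 5 in both genes, and metformin mouse 1 was the highest. The log2 fold changes were 0.48 (SE 0.578, adjusted p = 0.853) for Rps29 and 0.27 (SE 0.579, adjusted p = 0.924) for Rps28. Without control mouse 3 the log2 fold change of Rps29 was 0.03 (SE 0.312), and without control mouse 2 it was 1.08 (SE 0.588, adjusted p = 0.856). That of Rps28 was -0.165 (SE 0.374) without control mouse 3 and 0.92 (SE 0.568) without control mouse 2.

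The metformin group held a mirror of this relation in mouse 1. Spearman's rho between coding length and the log2 ratio of metformin mouse 1 to metformin mice 2 and 3 was -0.544 over the 85 genes and -0.080 over 14717 features. The median log2 fold change, metformin over control, was 0.21 for the genes under 400 bases, 0.05 for those of 400 to under 600 bases and -0.03 for the longer ones. All features of these lengths had medians of 0.23, 0.13 and -0.01. With the length trend of each library taken out, an alternative chosen after seeing the data, the median over the 85 genes was -0.07, with 28 higher and 57 lower and 0 past the thresholds. The part of RNA quality or library preparation in the length trend was not tested.

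**Figure D3:**
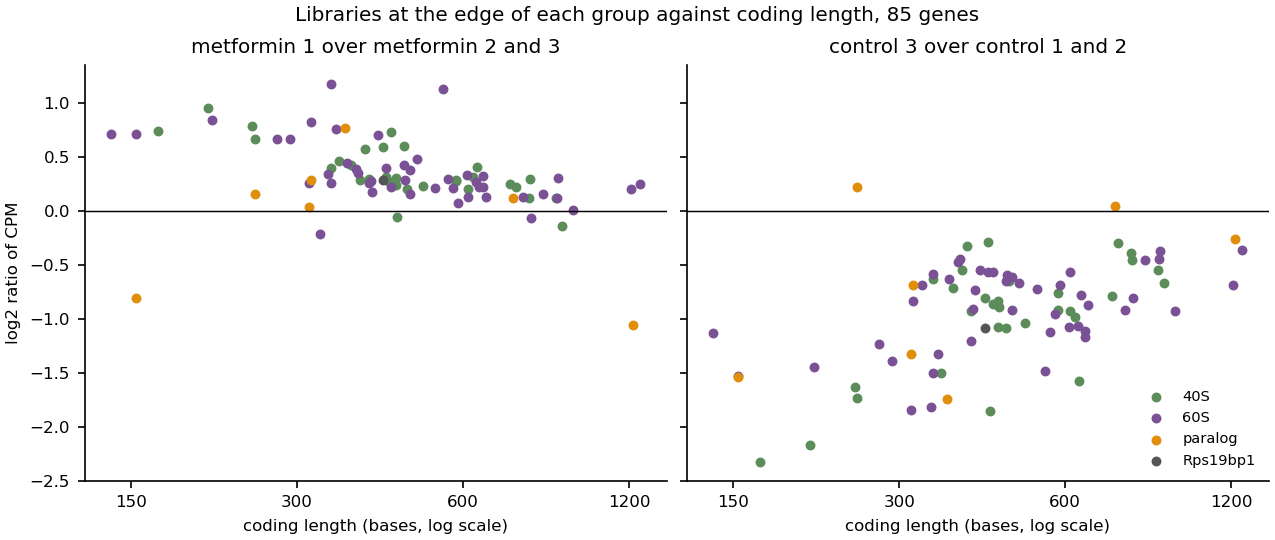
Log2 ratio of CPM of metformin mouse 1 to metformin mice 2 and 3 (left) and of control mouse 3 to control mice 1 and 2 (right) against coding length (log scale) for 85 genes, coloured by class. Most points lie above 0 on the left and below 0 on the right, furthest from 0 at short lengths (rho -0.544 and 0.430).

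As a share of each library, the 86 genes took up 2.86%, 2.02% and 2.42% of counts in metformin mice 1, 2 and 3, against 2.22%, 3.50% and 1.76% in control mice 1, 2 and 3. The mean was 2.43% ± 0.419 in metformin mice and 2.496% ± 0.903 in control mice (SD, n = 3 each), a difference of -0.063 percentage points. This difference is far smaller than the SD of either group, and no test was made on the share. The Wilson 95% interval of a single library was at most 0.00525 percentage points to either side and covers counting error only. Of summed FPKM, the genes took up 6.32%, 4.19% and 5.61% in metformin mice and 4.56%, 7.46% and 4.11% in control mice.

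**Figure D4:**
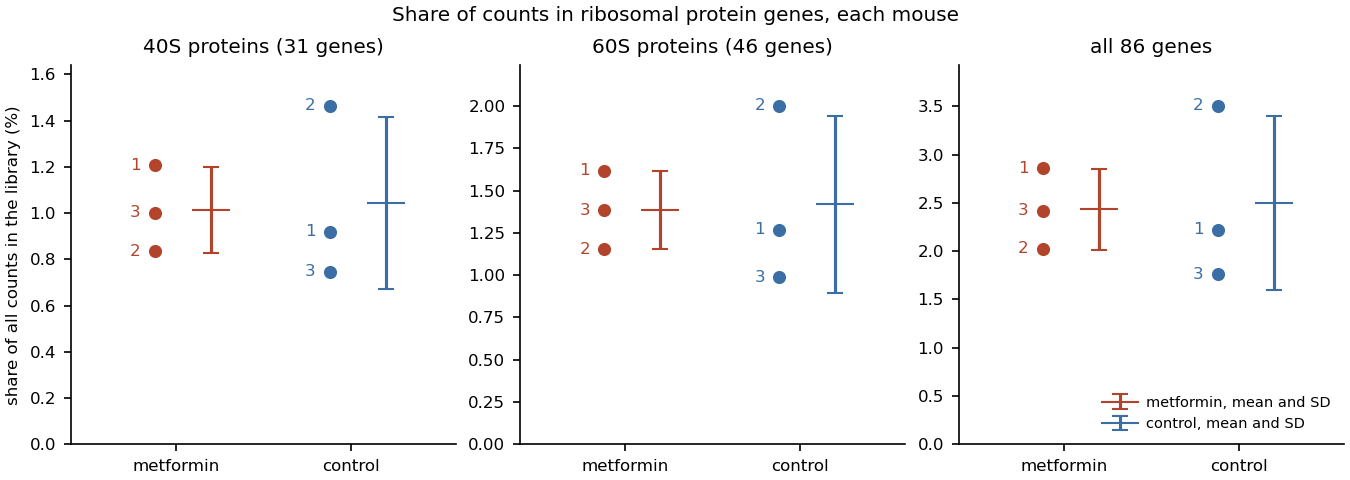
Share of all counts in the library (%, vertical axis from 0) in the 40S genes, the 60S genes and all 86 genes. Numbered points are single mice, and bars are the mean and SD of 3 metformin or 3 control mice. The metformin shares of 2.02 to 2.86% lie inside the control range of 1.76 to 3.50%.

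The direction of the median depended on which mice were kept. Without control mouse 2, 81 genes were higher and 4 lower in metformin mice, and the median was 0.34 (log2). Without control mouse 3, 11 were higher and 74 lower, with a median of -0.18. Without metformin mouse 1, 24 were higher and 61 lower, with a median of -0.08, and with any of the other 3 mice left out the median was between 0.05 and 0.10. In each of these 6 fits 0 genes passed the thresholds. An unadjusted p under 0.05 was reached by Rpl35a without control mouse 2 (log2 fold change 0.73, SE 0.226, adjusted p = 0.856) and by Rpl39l without control mouse 3 (-1.19, SE 0.493, adjusted p = 0.474).

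**Figure D5:**
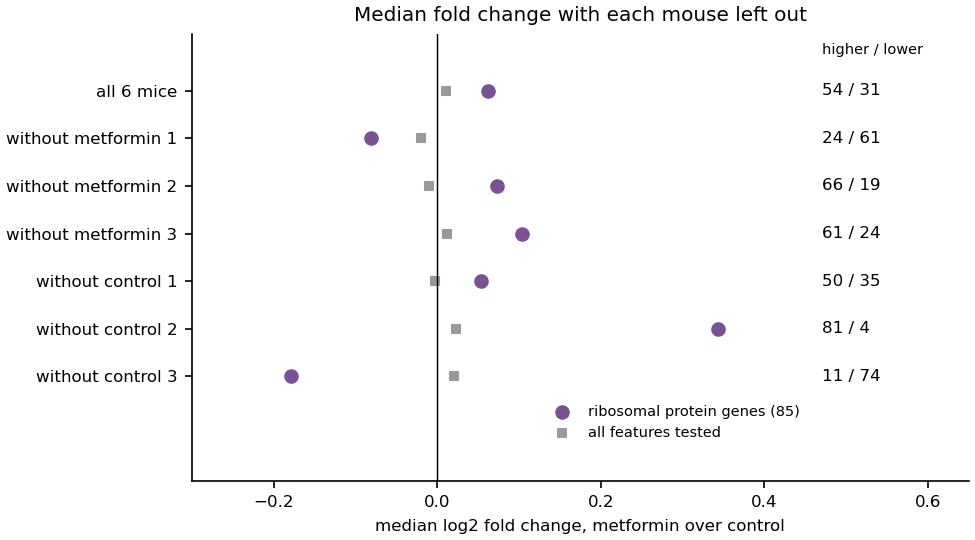
Median log2 fold change, metformin over control, of the 85 ribosomal protein genes (circles) and of all features tested (squares) with all 6 mice and with each mouse left out in turn (rows). Numbers at the right count genes higher and lower in metformin mice. The circle moves to 0.34 without control 2 and to -0.18 without control 3, while the squares stay between -0.02 and 0.02.

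Some of these genes share so much sequence with copies elsewhere that their counts are uncertain. Rps18 held 5419 counts over the 6 libraries, while its copies Gm10260 and Gm11361 held 57885 and 19551. Rps12 held 47308 counts and Rps12-ps3 54797, and Rpl21 held 14922 and BC004004 25709. Gm10260 shares 56.75% of the 50-base stretches of Rps18, and BC004004 only 31.06% of those of Rpl21. Rpl29 held 303 counts in all, and 78.5% of the 50-base stretches of its transcript occur in other genes. The genes with shared sequence did not all have the same order of mice. Gm10260 had 12303, 8691 and 8781 counts in metformin mice and 7633, 15941 and 4536 in control mice, highest in control mouse 2. BC004004 had 4473, 5779 and 4065 counts in metformin mice and 3578, 4201 and 3613 in control mice, highest in metformin mouse 2. As an alternative chosen after seeing the data, genes that share 13.1 to 92.1% of the 50-base stretches of a member were added. The share was then 2.96%, 2.09% and 2.49% in metformin mice and 2.29%, 3.61% and 1.81% in control mice. Rps18 and Rpl29 had log2 fold changes of 0.11 (SE 0.313) and 0.27 (SE 0.516). The genes of this paragraph were chosen after their counts were seen.

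Other genes of the protein synthesis machinery were read beside these. Over all features tested, 51.3% were higher in metformin mice and 1.7% passed the thresholds in either direction. The 14 further TOP mRNAs, which include those of elongation and initiation factors and poly(A)-binding protein, had 1 gene higher, 13 lower and 0 past the thresholds, with a median log2 fold change of -0.13. Npm1, the nucleolar chaperone nucleophosmin, had 212, 133 and 139.8 CPM in metformin mice and 179, 260.1 and 175 CPM in control mice (log2 fold change -0.34, SE 0.258, adjusted p = 0.786). Eif3e and Eif4b, both of translation initiation, had log2 fold changes of -0.26 (SE 0.167) and -0.25 (SE 0.177). Of the 14 genes only Eif4b was lower without overlap (7.01% of all features), and 0 were higher without overlap (6.24% of all features). Control mouse 2 was the highest of the 6 in 13 of the 14 genes, as in most ribosomal protein genes, but its median ratio to control mouse 3 was 1.42.

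Of 30 ribosome biogenesis genes, 23 were higher and 7 lower (median 0.13, log2), where 51.3% of all features were higher. Of the 30 genes, 1 passed the thresholds, against 1.7% of all features (0.421% past and higher). This was Rrs1, which is needed for assembly of the 60S subunit, with 40.6, 36.8 and 31.9 CPM in metformin mice against 21.8, 22.4 and 27.4 CPM in control mice. Its groups did not overlap, at a log2 fold change of 0.61 (SE 0.165, adjusted p = 0.539). Of the 30 genes, 6 were higher without overlap (6.24% of all features) and 0 were lower without overlap (7.01% of all features). Rrp9, a protein of the U3 particle that processes rRNA, had 15.5, 19.1 and 15.2 CPM in metformin mice and 12.3, 12.7 and 9.80 CPM in control mice (log2 fold change 0.51, SE 0.188, adjusted p = 0.626), and Bysl 0.36 (SE 0.183). Ncl, the nucleolar protein nucleolin, had a log2 fold change of -0.25 (SE 0.206).

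Of 13 genes around mTORC1 and the S6 kinases, 4 were higher and 9 lower, with 0 past the thresholds. Eif4ebp1, the mTORC1 target that blocks eIF4E, had 203, 221 and 185 CPM in metformin mice against 148, 145 and 134.5 CPM in control mice. The groups did not overlap and the log2 fold change was 0.51 (SE 0.161, adjusted p = 0.572). Of the 13 genes only Eif4ebp1 separated in this way, against 13.2% of all features. For the S6 kinase gene Rps6kb2 the log2 fold change was 0.29 (SE 0.190), and for Larp1, the TOP-binding protein, -0.13 (SE 0.158).

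The mitochondrial ribosome, a separate machine with its own proteins, had another order of mice. Of 78 genes, 76 were higher and 2 lower in metformin mice, where 51.3% of all features were higher. Their median log2 fold change was 0.28, with 0 past the thresholds and 0 at an unadjusted edgeR p under 0.05. Their median deviation was -0.01, 0.49 and -0.06 (log2) in metformin mice 1, 2 and 3, against 0.23, -0.20 and -0.40 in control mice 1, 2 and 3. Control mouse 3 was low again, the lowest of the 6 in 60 of the 78 genes (76.9%, against 24.0% of all features). The highest median was that of metformin mouse 2, and that of control mouse 2 lay below 0. The part of single mice or of coding length in this direction was not tested. Mrps15 and Mrps16 of the mitochondrial small subunit had log2 fold changes of 0.41 (SE 0.191) and 0.63 (SE 0.335). The 38 tested genes with a proteasome symbol had 30 higher, 8 lower and 0 past the thresholds, with a median of 0.11. Among the higher ones was Psmc3ip, which matches by symbol but is no proteasome subunit (log2 fold change 0.43, SE 0.168).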

How the data were processed

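Whole mammary gland RNA of 3 metformin-treated and 3 control mice was enriched by oligo(dT), sequenced and mapped to GRCm38 (mm10). HISAT2 and StringTie appear in the processing notes of the submitters with no version. The authors deposited raw counts per feature (35375365 to 47370885 per mouse). Their counting tool, annotation release and use of strand were not given in the sources used here, so overlapping and antisense genes are uncertain. The deposited FPKM values, made by the authors from the same libraries, were used for levels between genes and as an alternative.

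Counts were fitted over 15925 features in R 4.3.3 with edgeR 4.0.16 (filterByExpr, TMM, quasi-likelihood F test, Benjamini-Hochberg), with the SE derived from the log2 fold change and the root of its F statistic. The thresholds, a 1.5-fold change with p under 0.01, are those of the study. The fit was tested on simulated data. Coding lengths (92.4% of features tested), positions and shared 50-base stretches came from GENCODE vM21, and promoters from RefSeq. Alternatives were DESeq2 1.42.0, limma-voom (limma 3.58.1), other scalings and filters, log2 FPKM, the replicate number as a block, and each mouse left out. The labels do not say whether the replicate numbers mark pairs, and they were not read as pairs. Members and gene lists were chosen with earlier results of these data known. Named were up to 6 members in each direction by p, the 6 highest by mean FPKM, 7 by role (Rps6, Rpl5, Rpl11, Rpsa, Rplp0, Rplp1, Rplp2), all paralogs, members that are no ribosomal protein or failed the filter, and up to 3 per direction of each other list, of which some are printed.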

Additional observations from a re-analysis of the deposited data

How the results depend on the processing

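Under DESeq2, limma-voom, RLE and upper quartile scaling, library totals alone, TMM factors without the members, both other filters, exclusion of the features assembled by the authors, and log2 FPKM with a pseudocount of 1 or 0.1, 0 ribosomal protein genes passed the thresholds, and the median log2 fold change stayed between 0.01 and 0.07. With library totals alone, 43 genes were higher and 42 lower. Leaving out 1 mouse moved the median between -0.18 and 0.34 and the difference in the share of counts between -0.43 and 0.44 percentage points, with 0 genes past the thresholds each time. The difference in the share was -0.148 percentage points with milk and mitochondrially encoded genes taken out of the total. It was -0.056 with genes added that share 13.1 to 92.1% of the 50-base stretches of a member. Of 480 values of 24 named genes under an alternative, 6 moved by more than the spread between mice (5 of Rpl7l1, at 0.15 to 0.17, and 1 of Rps27rt), and 0 crossed the thresholds. Leaving out 1 of 3 mice can seldom move a value that far, so this count does not show the genes to be stable in those fits. Rplp1 (0.31) and Rpl22l1 (0.21) went to -0.08 and -0.18 without control mouse 3. Without control mouse 2 they went to 0.79 and 0.58. Counts over all features varied more: 271 passed the thresholds in edgeR, 519 in DESeq2, 401 in limma-voom, 118 with the replicate block, and between 107 and 666 with 1 mouse left out, 666 being the count without control mouse 3 and 107 without control mouse 2. At an adjusted p under 0.05, DESeq2 called 200 features and edgeR 0.

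With the replicate number as a block, the median log2 fold change was 0.12, with 62 genes higher, 23 lower and 0 past the thresholds. Deviations of same-numbered mice correlated at -0.35, -0.14 and -0.01, so the numbers were not read as pairs. With 3 mice a group, the intervals of all but 5 of the 85 genes reached beyond a 1.5-fold change.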
